A study of Mus musculus with 23 samples.

Results

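The neurotrophin system examined here comprises the ligand genes Bdnf and Ntf3, the receptor genes Ntrk2, Ntrk3 and Ngfr, and Vgf, which encodes a secreted granin-like protein. They are 6 of the 19733 genes in the expression table, chosen by gene symbol, and all 6 were found. The hippocampus of 23 male, wild-type C57BL/6J mice was sequenced, 1 library per mouse. The Ctrl group (n = 9) had an AIN93M control liquid diet and a daily gavage of 0.05% CMC-Na, the vehicle. The EtOH group (n = 7) had an ethanol liquid diet and the same vehicle gavage. The EtOH-UA group (n = 7) had the ethanol diet and urolithin A (UA), a compound that gut bacteria make from dietary ellagitannins, gavaged at 200 mg/kg/day in the same vehicle. Mice were 6 weeks old when acquired, were treated for 16 weeks and went through 1 week of behavioral tests before collection. No group received UA on the control diet, so an effect of UA is seen here only on top of ethanol. EtOH against Ctrl asks how long-term alcohol intake changed these transcripts, EtOH-UA against EtOH how UA changed them under alcohol, and EtOH-UA against Ctrl how far the treated mice were from the unexposed ones.

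Neurotrophins are secreted proteins made as larger precursors. BDNF acts through the receptor tyrosine kinase TrkB (Ntrk2) and NT-3 (Ntf3) mainly through TrkC (Ntrk3), while p75 (Ngfr) binds all mature neurotrophins and, with sortilin, their precursors. In the hippocampus, BDNF is made by excitatory neurons, is induced by activity and is required for lasting synaptic potentiation. Ntf3 is known in the adult hippocampus from granule cells of the dentate gyrus. Vgf is induced by BDNF and by neuronal activity, and its protein is cut into peptides stored in dense-core vesicles. Both Ntrk2 and Ntrk3 give full-length transcripts with a kinase domain and truncated transcripts without one, and astrocytes carry mostly truncated TrkB. The table gives 1 value per gene, so these forms were not separated.

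On GRCm38.p6, RefSeq places Bdnf on chromosome 2 at 109674700-109727043 on the plus strand. Transcript counts and shared exons given here are from the GENCODE annotation. It lists 11 Bdnf transcripts, which join different 5′ exons to a shared coding exon. Ntf3 lies on chromosome 6 at 126101412-126166772 on the minus strand, with 3 transcripts. Ntrk2 lies on chromosome 13 at 58806472-59133970 (plus strand, 10 transcripts) and Ntrk3 on chromosome 7 at 78179986-78581034 (minus strand, 20 transcripts). Ngfr lies on chromosome 11 at 95568818-95587698 (minus strand, 1 transcript) and Vgf on chromosome 5 at 137025301-137033351 (plus strand, 4 transcripts). Only Bdnf shares exon sequence with a neighbour, the antisense gene Gm45346, which is not in the table. Whether the counting used strand is not given in the sources used here, so the reads of Bdnf and of this antisense gene may not have been told apart.

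The starts of both ligand genes were searched for 5 short motifs of activity-dependent or E-box factors in the 250 bases upstream, on both strands: CRE (TGACGTCA), CRE core (TGACG, which is contained in CRE), AP-1 (TGACTCA), EGR (GCGTGGGCG) and E-box (CACGTG). The RefSeq promoter table of GRCm38.p6 lists 7 starts for Bdnf and 2 for Ntf3, and 1 start of each gene held a match. These windows are shown because Bdnf and Ntf3 are the ligands and both were related to dentate granule markers across mice. Capitals mark the match.
Bdnf, start 3 of 7, chr2:109692186-109692435, plus strand: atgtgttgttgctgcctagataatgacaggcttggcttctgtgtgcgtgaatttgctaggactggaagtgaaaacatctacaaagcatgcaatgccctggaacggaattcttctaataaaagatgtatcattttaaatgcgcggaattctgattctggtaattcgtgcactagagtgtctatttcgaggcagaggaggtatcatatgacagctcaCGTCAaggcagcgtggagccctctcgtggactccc
Ntf3, start 1 of 2, chr6:126166745-126166994, minus strand: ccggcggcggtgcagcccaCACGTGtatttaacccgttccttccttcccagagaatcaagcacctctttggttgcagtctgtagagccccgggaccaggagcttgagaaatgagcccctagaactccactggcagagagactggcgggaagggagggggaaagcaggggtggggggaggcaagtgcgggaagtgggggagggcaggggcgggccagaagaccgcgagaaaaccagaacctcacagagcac
The Bdnf match is a CRE core read on the opposite strand, 35 bases before the start, and the Ntf3 match is an E-box 231 bases before the start. Among the 32851 promoters in the table, 17.8% held a CRE core, 6.02% the E-box, 4.46% AP-1, 1.55% the full CRE and 0.536% the EGR motif in a window of the same length. None of these 5 motifs was found in the windows of the other 6 Bdnf starts, the other Ntf3 start, or the single listed starts of Ntrk2 and Ngfr. Ntrk3 and Vgf were not matched in the promoter table.

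Levels are in FPKM, a count of sequenced fragments scaled to transcript length and to library size, so genes can be set beside each other. The table holds no read counts. From the step size of low values in 77 genes with 1 annotated transcript, 1 FPKM corresponded to a median of 16.7 fragments per kilobase. On that estimate an average library held about 34 Ngfr fragments, 105 Ntf3 fragments and 698 Bdnf fragments. Counting error alone would then give a coefficient of variation of 17.2% for Ngfr, 9.76% for Ntf3 and 3.78% for Bdnf, against 29.5%, 23% and 16.8% observed within groups. Summed FPKM over all genes was 327896 to 404609, and 283 genes were at 0 in every mouse. One EtOH-UA mouse stood apart: its summed FPKM of 404609 was the highest (the next was 379518). It had the highest Bdnf and Ntf3 and the lowest Ntrk2 and Ntrk3 of all 23 mice. It also had the highest sums of dentate granule, CA2, CA3, striatal and choroid plexus markers. Fold changes of the members, and calls of named relations that depend on it, are given with and without it. Choroid plexus marker sums (Ttr, Folr1, Kl, Clic6, Kcnj13, Prlr), which mark tissue that lies against the hippocampus, were 8.05 to 2970 FPKM in Ctrl, 69.67 to 5748 in EtOH and 16.38 to 7805 in EtOH-UA. General markers of hippocampal excitatory neurons were present in every group, and none of the 6 was at 0.

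All 6 members were above 0 in every mouse, and their order was the same in 23 of 23 mice: Ntrk2, Vgf, Ntrk3, Bdnf, Ntf3, Ngfr. The median ratio of FPKM between neighbours in that order was 1.72 for Ntrk2 over Vgf, 1.6 for Vgf over Ntrk3, 2.64 for Ntrk3 over Bdnf, 2.42 for Bdnf over Ntf3 and 7.8 for Ntf3 over Ngfr. Across all mice the ranges of Ntrk2 and Vgf overlapped, while those of the other neighbours did not. The receptor transcripts of both Trk genes were thus more abundant than the ligand transcripts in each library, and Ngfr was the least abundant member.

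No member passed the test in any comparison. In limma with Benjamini-Hochberg adjustment over the 15985 genes tested, 0 of 6 members passed an adjusted p of 0.05 in any of the 3 comparisons, and 0 of 6 had an unadjusted p under 0.05. The background was equally low: 0% of all genes passed the adjusted threshold in each comparison. An unadjusted p under 0.05 was found for 3.05% of all genes in EtOH against Ctrl, 3.27% in EtOH-UA against EtOH and 3.08% in EtOH-UA against Ctrl. For every member and every comparison the ranges of the groups overlapped. Log2 fold changes below are on the log2(FPKM + 0.1) scale, with standard errors (SE) and 95% intervals from this fit, and exact p is a two-sided permutation test over all splits of the mice.

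**Figure D1:**
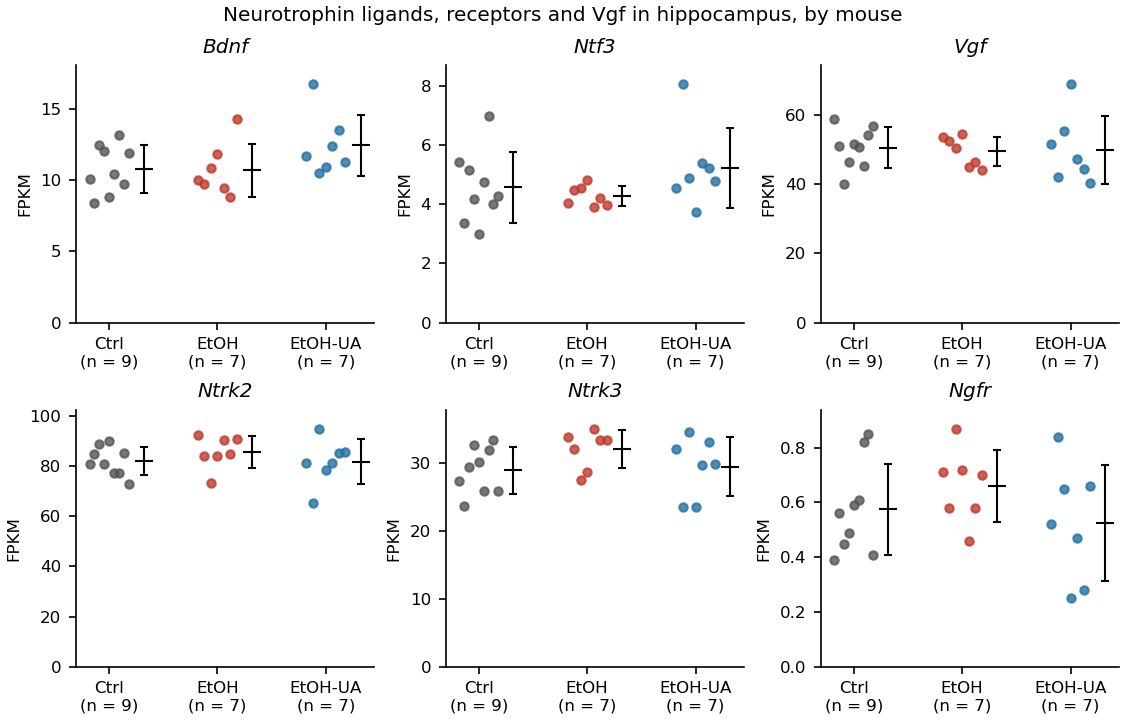
FPKM of each gene by mouse (points) in Ctrl (n = 9), EtOH (n = 7) and EtOH-UA (n = 7), with the group mean and SD beside the points; each vertical axis starts at 0. The groups overlap for each of the 6 genes, and the highest Bdnf (16.75) and Ntf3 (8.05) values belong to the same EtOH-UA mouse.

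Bdnf was 8.37 FPKM in the lowest, 10.46 in the median and 13.2 in the highest Ctrl mouse. In EtOH the lowest, median and highest values were 8.84, 10 and 14.33, and in EtOH-UA 10.49, 11.72 and 16.75. EtOH therefore lay within the range of Ctrl except for 1 high mouse, whereas 7 of 7 EtOH-UA mice lay above the median of EtOH and above that of Ctrl. Group means were 10.8 ± 1.69, 10.72 ± 1.865 and 12.45 ± 2.149 FPKM (SD, n = 9, 7 and 7). The log2 fold change was -0.01 (SE 0.11, exact p = 0.917) for EtOH against Ctrl. It was 0.22 (SE 0.12, 95% interval -0.02 to 0.45, exact p = 0.108) for EtOH-UA against EtOH and 0.20 (SE 0.11, exact p = 0.0986) for EtOH-UA against Ctrl, with adjusted p of 0.9003 and 0.9991 in limma. The interval against EtOH allowed no difference as well as a rise of up to 0.45 on the log2 scale. A moderate rise was thus neither shown nor excluded. Without the EtOH-UA mouse that stood apart, the difference from EtOH was 0.14 (SE 0.109) and that from Ctrl 0.13 (SE 0.104), and both values with this mouse were over 1.5 times as large.

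Ntf3, the NT-3 gene, ranged from 3.0 to 6.99 FPKM in Ctrl with a median of 4.28, from 3.91 to 4.81 in EtOH with a median of 4.21, and from 3.72 to 8.05 in EtOH-UA with a median of 4.87. The EtOH mice were the most alike, with an SD of 0.3353 FPKM against 1.198 in Ctrl and 1.356 in EtOH-UA; this difference in spread was not tested. In EtOH-UA, 4 of 7 mice lay above the highest EtOH mouse and 1 lay below the lowest. The log2 fold change was -0.05 (SE 0.14, exact p = 0.72) for EtOH against Ctrl, 0.25 (SE 0.15, 95% interval -0.06 to 0.56, exact p = 0.0565) for EtOH-UA against EtOH and 0.20 (SE 0.14, exact p = 0.283) for EtOH-UA against Ctrl. Without the EtOH-UA mouse that stood apart, the difference from EtOH was 0.14 (SE 0.137) and that from Ctrl 0.09 (SE 0.13), so this mouse alone moved both by over 1.5 times.

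Ntrk2 was the most abundant member, at 72.91 to 90.18 FPKM in Ctrl (median 80.97), 73.44 to 92.29 in EtOH (median 84.63) and 65.37 to 94.96 in EtOH-UA (median 81.24). EtOH-UA held both the lowest and the highest mouse of the study. The log2 fold change was 0.06 (SE 0.06, exact p = 0.262) for EtOH against Ctrl, -0.07 (SE 0.07, exact p = 0.371) for EtOH-UA against EtOH and -0.01 (SE 0.06, exact p = 0.88) for EtOH-UA against Ctrl. Its intervals were the narrowest of the 6 genes: the interval for EtOH against Ctrl ran from -0.07 to 0.19. Without the mouse that stood apart, the differences of EtOH-UA were -0.02 (SE 0.0585) from EtOH and 0.04 (SE 0.0555) from Ctrl.

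Ntrk3 was 23.66 to 33.48 FPKM in Ctrl (median 29.45), 27.57 to 35.1 in EtOH (median 33.48) and 23.49 to 34.54 in EtOH-UA (median 29.87). The median EtOH mouse thus equalled the highest Ctrl mouse, and 2 of 7 EtOH mice lay above it. The log2 fold change for EtOH against Ctrl was 0.15 (SE 0.09, 95% interval -0.03 to 0.33, exact p = 0.079), and its adjusted p in limma was 0.9988. For EtOH-UA it was -0.13 against EtOH (SE 0.09, exact p = 0.231) and 0.02 against Ctrl (SE 0.09, exact p = 0.84). The last of these turned negative when certain single mice were left out. Without the mouse that stood apart, the differences of EtOH-UA were -0.08 (SE 0.088) from EtOH and 0.07 (SE 0.0834) from Ctrl.

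Ngfr, the p75 receptor gene, rested on the fewest fragments of the 6. It ranged from 0.39 to 0.85 FPKM in Ctrl (median 0.56), 0.46 to 0.87 in EtOH (median 0.7) and 0.25 to 0.84 in EtOH-UA (median 0.52). The 2 lowest mice of the study, at 0.25 and 0.28, were both EtOH-UA. The log2 fold change was 0.19 (SE 0.19, exact p = 0.234) for EtOH against Ctrl, -0.34 (SE 0.20, 95% interval -0.76 to 0.07, exact p = 0.16) for EtOH-UA against EtOH and -0.15 (SE 0.19, exact p = 0.489) for EtOH-UA against Ctrl. Without the mouse that stood apart, the difference of EtOH-UA from EtOH was -0.46 (SE 0.198), and that from Ctrl was -0.27 (SE 0.187), over 1.5 times the value with it. Without the EtOH-UA mouse of lowest Ngfr, the difference from EtOH was -0.22 and that from Ctrl -0.03. At this level the pseudocount shrinks the fold change.

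Vgf was 39.88 to 58.74 FPKM in Ctrl (median 50.96), 43.94 to 54.26 in EtOH (median 50.31) and 40.17 to 68.74 in EtOH-UA (median 47.14). The highest mouse of the study was in EtOH-UA, and the lowest in Ctrl. The log2 fold change was -0.03 (SE 0.09, exact p = 0.731) for EtOH against Ctrl, -0.00 (SE 0.10, exact p = 0.973) for EtOH-UA against EtOH and -0.03 (SE 0.09, exact p = 0.78) for EtOH-UA against Ctrl. The 95% interval for EtOH-UA against EtOH ran from -0.21 to 0.20. Without the mouse that stood apart the differences of EtOH-UA were 0.03 (SE 0.10) from EtOH and 0.01 (SE 0.0952) from Ctrl.

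**Figure D2:**
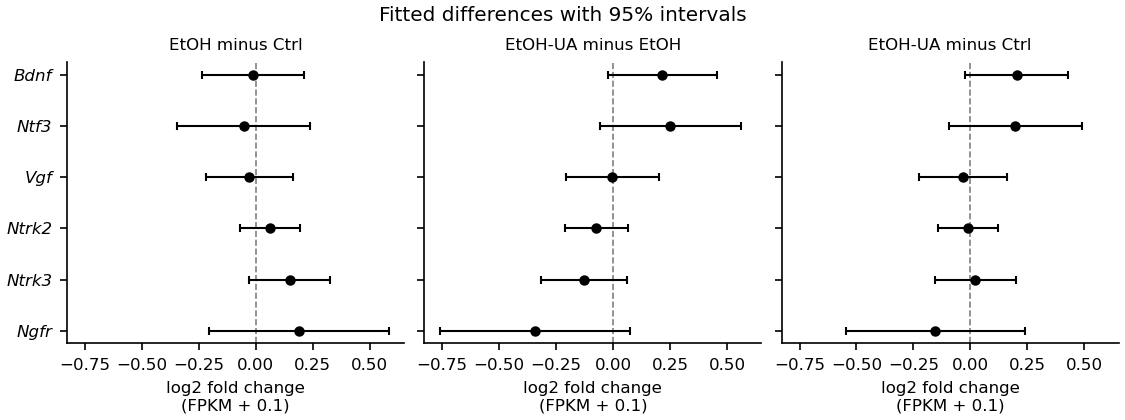
Log2 fold change on the log2(FPKM + 0.1) scale of each gene in the 3 comparisons, with 95% intervals from limma; the dashed line marks no difference. Each of the 18 intervals includes 0, the widest are those of Ngfr, and Bdnf in EtOH-UA against EtOH lies at 0.22.

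Genes that work with the members were read from 6 lists. Of all 15985 genes tested, 7764 were higher in estimate and 8221 lower in EtOH than in Ctrl. The split over all genes was 8180 and 7805 in EtOH-UA against EtOH, and 8179 and 7806 in EtOH-UA against Ctrl. The splits within lists were not tested. Of the 13 ligands and receptors beside the members, 12 were tested and none passed the adjusted or the unadjusted threshold in any comparison. Ntf5, which encodes NT-4, the other TrkB ligand, was at a median of 0.22 FPKM over all mice (0.13 to 0.54). The co-receptor Sort1 (sortilin) was far more abundant than Ngfr, with a median of 115.3 FPKM (88.08 to 124.53). Its relatives Sorl1, Sorcs2, Sorcs3 and Sorcs1 had medians of 40.15, 10.21, 9.79 and 3.13 FPKM. The p75 partners Lingo1 and Rtn4r had medians of 50.58 and 24.11, and the receptor-binding proteins Maged1, Bex3 and Kidins220 had medians of 211.3, 114.5 and 64.3. Of the 12 tested genes of this list, 6 were higher in estimate and 6 lower in EtOH than in Ctrl, 5 and 7 in EtOH-UA against EtOH, and 4 and 8 in EtOH-UA against Ctrl.

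The list of genes for activity-dependent and BDNF-dependent transcription (16 genes, among them Arc, Egr1, Fos and Nptx2) had 0 genes past the adjusted threshold. Egr3 and Egr1, its most abundant members by mean, had medians of 23.48 and 22.45 FPKM. In EtOH against Ctrl, 7 were higher in estimate and 9 lower, with a median log2 fold change of -0.01 beside -0.00 for all genes. In EtOH-UA against EtOH, 14 were higher in estimate and 2 lower, with a median of 0.05 beside 0.00 for all genes, and none of the 16 had an unadjusted p under 0.05. In EtOH-UA against Ctrl, 11 were higher in estimate and 5 lower (median 0.05). Fosb, an immediate early transcription factor, was 1.06 to 1.57 FPKM in Ctrl and 0.99 to 1.24 in EtOH, a log2 fold change of -0.23 (SE 0.10, unadjusted p = 0.0378 and adjusted p = 0.9988 in limma). It was the 1 gene of the list with an unadjusted p under 0.05 in that comparison, 6.25% of the 16 beside 3.05% of all genes.

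The granin and dense-core vesicle list (14 genes), which holds the genes that sort and cut proteins such as VGF, also had none past the adjusted threshold. Cpe, a sorting and processing enzyme, and Chgb, a granin, were its most abundant genes, with medians of 1227 and 287.6 FPKM. In both EtOH and EtOH-UA, 11 of 14 genes were lower in estimate than in Ctrl, with median log2 fold changes of -0.03 in each case. In EtOH-UA against EtOH, 6 were higher in estimate and 8 lower. The Ctrl mice are shared by the first 2 of these counts. Npy, a neuropeptide of interneurons, was 38.77 to 53.68 FPKM in Ctrl and 27.33 to 48.76 in EtOH-UA, a log2 fold change of -0.21 (SE 0.09, unadjusted p = 0.0267 and adjusted p = 0.9991 in limma). It was the 1 gene of the 14 with an unadjusted p under 0.05 in that comparison, 7.14% beside 3.08% of all genes.

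Of the 12 proneurotrophin processing genes, 11 were in the table and 9 were tested, with none past the adjusted threshold. In EtOH against Ctrl, 1 of the 9 was lower at an unadjusted p under 0.05 in limma, 11.11% beside 3.05% of all genes. Serpini1, which encodes neuroserpin, an inhibitor of tissue plasminogen activator, had a median of 85 FPKM and was the most abundant after Cpe. In the list of transcription regulators of Bdnf and Vgf (15 genes), 6 were higher in estimate and 9 lower in EtOH than in Ctrl, and again 6 and 9 in EtOH-UA against EtOH. Its most abundant genes were Camk2a and Crtc1, at medians of 839.8 and 48.75 FPKM, and none had an unadjusted p under 0.05. The 38 adaptors and kinases downstream of Trk receptors, among them the abundant kinase gene Map2k1 (median 124 FPKM), split into 19 higher in estimate and 19 lower in EtOH against Ctrl. In EtOH-UA, 13 were higher in estimate and 25 lower against EtOH, and the same split was found against Ctrl, with median log2 fold changes of -0.03 and -0.02. None of the 38 had an unadjusted p under 0.05 in any comparison.

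The members also varied among mice of the same group. Within groups the SD of log2 values was 0.23 for Bdnf, 0.298 for Ntf3, 0.126 for Ntrk2, 0.18 for Ntrk3, 0.388 for Ngfr and 0.196 for Vgf. The median SD of genes within 1.5-fold of the same level was 0.144, 0.178, 0.143, 0.135, 0.365 and 0.137. Ntf3, Bdnf, Vgf, Ntrk3 and Ngfr thus varied more than most genes of their level (percentiles 87, 85.9, 78.9, 72.7 and 57.7), whereas Ntrk2 varied less than most (percentile 39.5). How the members varied together was examined after the group means were removed, with p-values from 100000 permutations of mice within groups, adjusted over the 15 pairs.

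Of the 15 pairs, 2 passed an adjusted p of 0.05 by Pearson's r and by Spearman's rho. For Bdnf and Ntf3, r was 0.667 (adjusted p = 0.0123, permutation) and rho 0.61 (adjusted p = 0.0491, permutation). The coefficient was 0.761 within Ctrl, 0.0621 within EtOH and 0.884 within EtOH-UA, and 0.714 without the 2 mice of most extreme Bdnf. For Ntrk2 and Ntrk3, r was 0.646 (adjusted p = 0.0138, permutation) and rho 0.576 (adjusted p = 0.0491, permutation). The coefficient was 0.252 within Ctrl, 0.853 within EtOH and 0.827 within EtOH-UA. Without the 2 mice of most extreme Ntrk2 it was 0.507 (adjusted p = 0.184, permutation), so the call for Ntrk2 and Ntrk3 rested on those mice. Without the EtOH-UA mouse that stood apart neither pair passed: r was 0.562 for Bdnf and Ntf3 and 0.543 for Ntrk2 and Ntrk3 (adjusted p = 0.0942 for both, permutation). Neither ligand passed with its main receptor: r was -0.435 for Bdnf and Ntrk2 and -0.0671 for Ntf3 and Ntrk3. Bdnf and Vgf had r of -0.446, which did not pass either (adjusted p = 0.146, permutation).

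The same deviations were set against the summed FPKM of lists of cell type and subfield markers and against the summed FPKM of all genes, 102 relations in all. Of these, 16 passed an adjusted p of 0.05 by r and 11 by both r and rho. How many of all genes would pass the same relations was not examined, so these counts do not set the members apart from other genes. In bulk tissue, fewer cells of a type and less RNA per cell cannot be told apart, and each relation below is between levels within the same libraries. The part of tissue composition in any difference between groups was not tested.

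**Figure D3:**
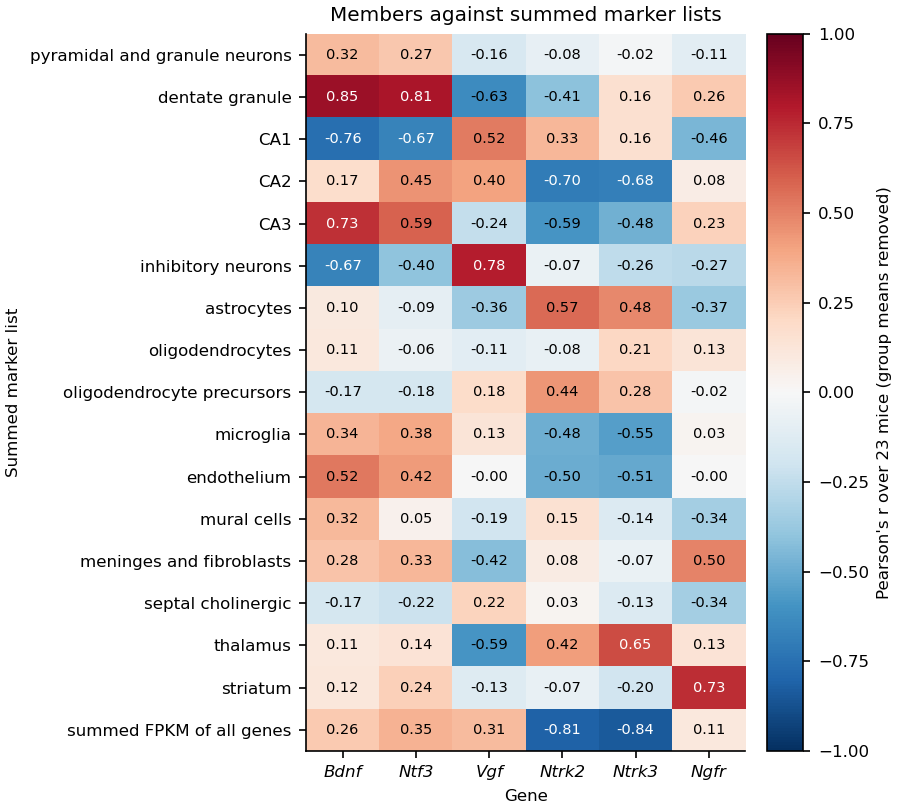
Pearson's r over 23 mice, group means removed, between each gene (columns) and the summed FPKM of each marker list or of all genes (rows), colored from -1 to 1. The choroid plexus list is left out. Among the lists plotted, Bdnf and Ntf3 are most positive with dentate granule markers (0.85 and 0.81), Vgf with inhibitory neuron markers (0.78), Ngfr with the striatal list (0.73), and Ntrk2 and Ntrk3 most negative with summed FPKM (-0.81 and -0.84).

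Bdnf followed the dentate granule markers (Prox1, C1ql2, Dsp, Calb1, Tdo2, Dock10) most closely. The coefficient was 0.854 and rho 0.918, each with a permutation p of 1e-05, the smallest that 100000 permutations can give (adjusted p = 0.00102). It was 0.993 within Ctrl, 0.793 within EtOH and 0.869 within EtOH-UA, 0.773 without the 2 mice of most extreme marker sum and 0.815 without the mouse that stood apart. All 6 markers correlated positively with Bdnf, from 0.00152 for Calb1, which was the most abundant of them, to 0.799 for C1ql2. The marker sums were 88.07 to 138.9 FPKM in Ctrl (median 112.7), 106.4 to 123.6 in EtOH (median 114.2) and 98.88 to 169.8 in EtOH-UA (median 129.3). The group with the highest median of this sum was thus also the group with the highest median Bdnf. With the marker sum as a covariate, a fit added after the data were seen, the log2 fold change of Bdnf in EtOH-UA against EtOH was 0.04 (SE 0.0707) in place of 0.22. With summed FPKM or choroid plexus markers as the covariate instead, it was 0.17 (SE 0.117) and 0.24 (SE 0.114).

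Bdnf was also higher in mice with higher CA3 markers (r = 0.729, adjusted p = 0.00437, permutation; 4 of 5 markers positive). It was lower in mice with higher CA1 markers (r = -0.757, adjusted p = 0.00143, permutation; 5 of 5 markers negative) and with higher inhibitory neuron markers (r = -0.668, adjusted p = 0.00907, permutation). Without the 2 mice of most extreme marker sum, the relation to CA3 no longer passed (r = 0.601, adjusted p = 0.0548, permutation), whereas those to CA1 and inhibitory neurons did (r = -0.733 and -0.608). The genes most like Bdnf across the 23 mice, among the 12903 other genes whose mean reached 1 FPKM, were Mcm6 (r = 0.872), Cxcl12 (r = 0.857) and Kctd4 (r = 0.844). Mcm6 encodes a subunit of the replicative helicase and Cxcl12 a chemokine.

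Ntf3 also followed the dentate granule markers, with r of 0.813 (adjusted p = 0.0034, permutation) but a weaker rho of 0.619 (adjusted p = 0.0521, permutation). The coefficient was 0.773 within Ctrl, 0.429 within EtOH and 0.912 within EtOH-UA, and 0.756 without the mouse that stood apart. All 6 markers were positive, with C1ql2 again the highest at 0.746. With the marker sum as a covariate, the log2 fold change of Ntf3 in EtOH-UA against EtOH was 0.03 (SE 0.10) in place of 0.25, and that against Ctrl -0.03 (SE 0.0961) in place of 0.20. With summed FPKM as the covariate instead, these were 0.18 and 0.16, and with choroid plexus markers 0.28 and 0.16. Ntf3 was lower in mice with higher CA1 markers by r (-0.669, adjusted p = 0.0332, permutation) but not by rho (-0.428, adjusted p = 0.198, permutation). The relation to CA1 did not pass without the mouse that stood apart (r = -0.488, adjusted p = 0.193, permutation). The genes most like Ntf3 were Ptgr1 (r = 0.822), Rras2 (r = 0.815) and Pgbd5 (r = 0.806).

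**Figure D4:**
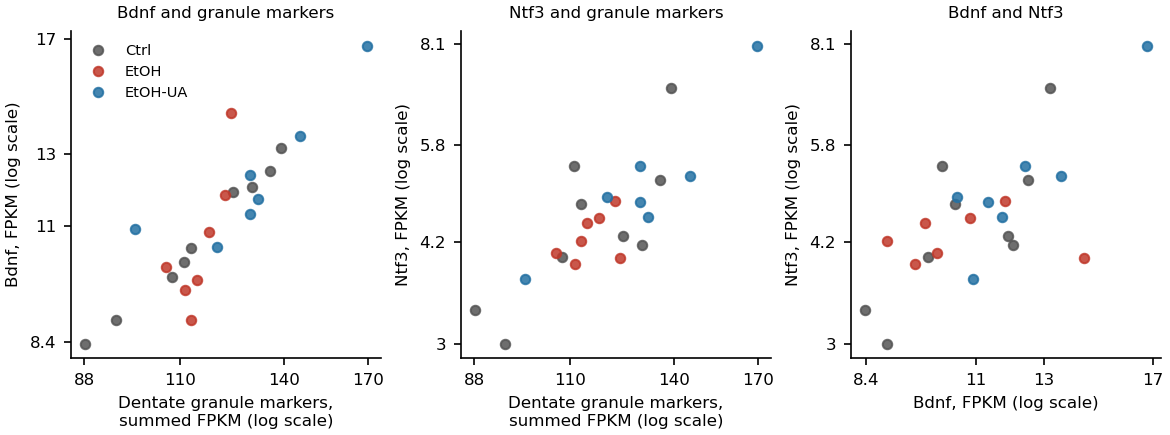
Each point is 1 mouse, colored by group, on logarithmic axes: Bdnf (left) and Ntf3 (middle) against the summed FPKM of 6 dentate granule markers, and Ntf3 against Bdnf (right). Bdnf rises with the marker sum in each group, and the EtOH-UA mouse at 169.8 FPKM of markers has the highest Bdnf (16.75) and Ntf3 (8.05).

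Ntrk2 and Ntrk3 were lower in mice with a higher summed FPKM. The coefficient was -0.812 for Ntrk2 (adjusted p = 0.00143, permutation; rho = -0.712) and -0.84 for Ntrk3 (adjusted p = 0.00143, permutation; rho = -0.749). Summed FPKM was 330456 to 361354 in Ctrl, 327896 to 366930 in EtOH and 333801 to 404609 in EtOH-UA. Without the 2 mice of most extreme sum, the coefficients were -0.706 and -0.74, and with values scaled to the upper quartile of each library they were -0.866 and -0.876. Within groups they ran from -0.64 to -0.886 for Ntrk2 and from -0.705 to -0.939 for Ntrk3. With summed FPKM as a covariate, a fit added after the data were seen, Ntrk3 in EtOH against Ctrl was 0.10 (SE 0.0495) in place of 0.15, and in EtOH-UA against EtOH -0.03 (SE 0.054) in place of -0.13. With dentate granule markers as the covariate instead, these were 0.15 and -0.15, and with choroid plexus markers 0.10 and -0.11.

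Both receptors were also lower in mice with higher CA2 markers (r = -0.703 for Ntrk2 and -0.682 for Ntrk3), with 4 of 5 markers negative for each receptor. Pcp4, the most abundant of these markers, was at -0.715 and -0.626, and Necab2 at -0.243 and -0.516. Amigo2 (-0.0873 and -0.0551) and Rgs14 (-0.109 and -0.181) were weaker, and Cacng5 was positive at 0.314 and 0.429. Neither relation passed without the mouse that stood apart (adjusted p = 0.0938 and 0.064, permutation). Ntrk2 was related to astrocyte markers (r = 0.568, adjusted p = 0.0467, permutation), with 4 of 7 markers positive: Slc1a2, the main glutamate transporter of astrocytes, reached 0.757 and Gfap was at -0.403. This relation did not pass without the mouse that stood apart (r = 0.454, adjusted p = 0.166, permutation). Ntrk3 was related to thalamic markers (r = 0.654, adjusted p = 0.0108, permutation; rho = 0.527, adjusted p = 0.0925, permutation), whose sums were low at 11.62 to 22.87 FPKM. The genes most like Ntrk2 were Rims1 (r = 0.906), a scaffold of the presynaptic active zone, Gm1043 (r = 0.885) and Ildr2 (r = 0.883). Those most like Ntrk3 were Jmjd1c (r = 0.945), Zfp972 (r = 0.944) and the synaptic vesicle gene Sv2c (r = 0.938).

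Ngfr was set against the choroid plexus markers separately, because their sums fell into 2 sets of mice with none between 79.89 and 486.6 FPKM. In the 9 mice of the lower set (5 Ctrl, 1 EtOH and 3 EtOH-UA), Ngfr was 0.25 to 0.61 FPKM with a median of 0.47. In the 14 mice of the higher set (4 Ctrl, 6 EtOH and 4 EtOH-UA) it was 0.45 to 0.87 with a median of 0.68. All 6 markers correlated positively with Ngfr over the 23 mice. Within each set, group means were not removed and mice were permuted across groups. The coefficients within sets can therefore include differences between groups. Within the lower set r was 0.206 (exact permutation p = 0.567, adjusted over both sets 0.567) and rho 0.267 (exact permutation p = 0.493). Within the higher set r was 0.461 (permutation p = 0.0978, adjusted 0.196) and rho 0.349 (permutation p = 0.221), and r without its 2 most extreme mice was 0.0904. EtOH held 6 of its 7 mice in the higher set and Ctrl 4 of 9, so a difference in Ngfr between these groups and one in choroid plexus content were partly aligned. With the marker sum as a covariate, a fit added after the data were seen, the log2 fold change of Ngfr in EtOH against Ctrl was -0.06 (SE 0.153) in place of 0.19, that of EtOH-UA against EtOH was -0.24 (SE 0.152) in place of -0.34, and that of EtOH-UA against Ctrl was -0.30 (SE 0.146) in place of -0.15. With summed FPKM as the covariate instead, these were 0.20, -0.37 and -0.17. With dentate granule markers they were 0.19, -0.44 and -0.25.

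Ngfr was also higher in mice with a higher sum of the striatal list (r = 0.735, adjusted p = 0.00841, permutation; 0.669 without the mouse that stood apart). Of its 5 genes, Ppp1r1b (r = 0.755) and Adora2a (r = 0.517) were well above the other three, which lay between -0.0594 and 0.0933. Septal cholinergic neurons, the cells best known for p75 in this part of the brain, have their cell bodies outside the hippocampus. The sum of their 4 markers was 0.14 to 0.41 FPKM, and 3 of the 4 had a mean below 0.1. Among the 12904 genes compared with Ngfr, Pcolce2 (r = 0.819) and Wfdc2 (r = 0.783) were among the most alike.

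**Figure D5:**
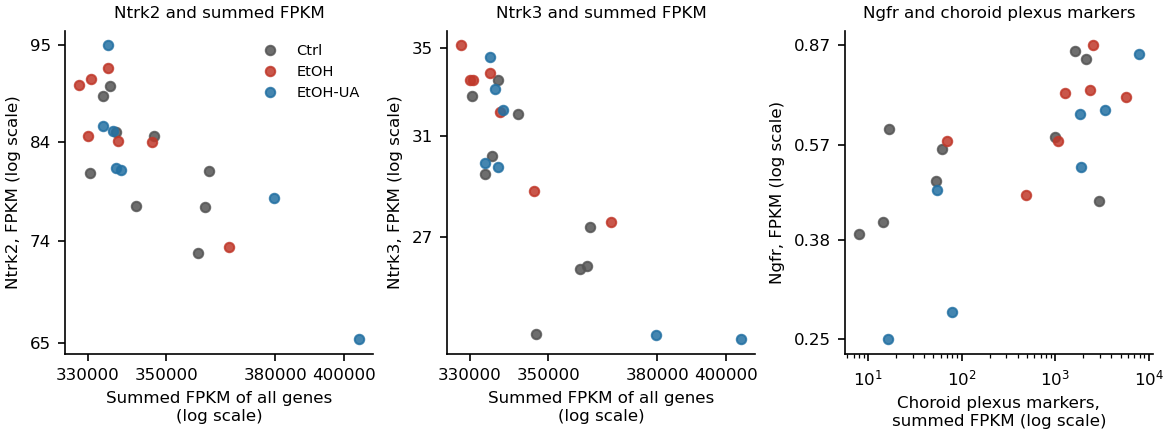
Each point is 1 mouse, colored by group, on logarithmic axes: Ntrk2 (left) and Ntrk3 (middle) against the summed FPKM of all genes, and Ngfr against the summed FPKM of 6 choroid plexus markers (right). Both Trk genes fall as the sum rises, and Ngfr is 0.25 to 0.61 in the 9 mice with few choroid plexus transcripts and 0.45 to 0.87 in the other 14.

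Vgf followed the inhibitory neuron markers (Gad1, Gad2, Slc32a1, Pvalb, Sst, Vip), with r of 0.782 (adjusted p = 0.00143, permutation) and rho of 0.69. All 6 markers were positive, from 0.135 for Gad2 to 0.784 for Slc32a1, and r was 0.824 within Ctrl, 0.402 within EtOH, 0.912 within EtOH-UA and 0.761 without the mouse that stood apart. The marker sums were 258.5 to 457.5 FPKM in Ctrl, 293.4 to 397.3 in EtOH and 290.7 to 473.6 in EtOH-UA. Vgf was lower in mice with more dentate granule markers (r = -0.628, adjusted p = 0.0422, permutation; rho = -0.555, adjusted p = 0.0925, permutation), the opposite sign to Bdnf and Ntf3. This relation did not pass without the mouse that stood apart (r = -0.585, adjusted p = 0.0696, permutation) or without the 2 mice of most extreme marker sum (r = -0.663, adjusted p = 0.0502, permutation). With thalamic markers, r of Vgf was -0.587 (adjusted p = 0.0315, permutation) and rho -0.495 (adjusted p = 0.129, permutation). The thalamic relation passed without the mouse that stood apart (r = -0.622, adjusted p = 0.0255, permutation). Without the 2 mice of most extreme thalamic sum it did not (r = -0.576, adjusted p = 0.0632, permutation). Vgf and CA2 markers had r of 0.4 (adjusted p = 0.338, permutation) over all mice but 0.747 (adjusted p = 0.00586, permutation) without the mouse that stood apart. For summed FPKM, r of Vgf was 0.314 (adjusted p = 0.51, permutation) and 0.684 (adjusted p = 0.0118, permutation) without that mouse. Without the 2 mice of most extreme sum, these were 0.721 (adjusted p = 0.0184, permutation) and 0.504 (adjusted p = 0.0961, permutation). The genes most like Vgf were Cbarp (r = 0.886), a regulator of voltage-gated calcium channels, Camk1g (r = 0.846), a calcium-dependent kinase, and Chst8 (r = 0.834), a sulfotransferase. Vgf is known as a target of BDNF, and in these mice the coefficient between the 2 genes was -0.512 within Ctrl, -0.143 within EtOH and -0.581 within EtOH-UA.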

How the data were processed

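Hippocampal RNA of 23 mice was sequenced by the authors on an MGI platform as 100 bp paired-end reads. The deposited table holds FPKM values per gene, which the authors made with RSEM after alignment with Bowtie2 to mm10. The methods and the submitters' processing notes give different versions (the notes list HISAT2 2.1.0, Bowtie2 2.2.5 and RSEM 1.2.8) and differ on whether poly(A)+ or total RNA was used. Read counts were not analysed here, so limma was used in place of the count model of the study's methods. Columns were matched to groups by name, and their names carry no number that links them to single samples.

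The 15985 genes whose mean reached 0.1 FPKM were fitted in limma 3.58.1 (R 4.3.3) on log2(FPKM + 0.1) with 1 coefficient per group, a mean-variance trend and Benjamini-Hochberg adjustment. Tests were checked on data made with known changes. Each member also had an exact two-sided permutation test. Correlations used deviations from group means and 100000 permutations within groups, except those of Ngfr within the lower and higher choroid plexus sets. There group means were kept and mice were permuted across groups. Python 3.11.15 was used. The members, gene lists and tests were chosen with earlier results of these data known. Of list genes, those beside the members were named in full, and of other lists up to 2 with the smallest unadjusted p under 0.05 and the 2 most abundant. For each member, the 3 most alike genes by r were named. Some genes that these rules name are not reported here. Alternatives were pseudocounts, filters, scalings, sample weights, subsets of mice and covariates. Counting error was estimated for Bdnf, Ntf3 and Ngfr only.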

Additional observations from a re-analysis of the deposited data

Results flagged for a closer look

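In each of the 3 groups, the highest and the lowest mouse were checked for their distance from the others for each of the 6 genes, 18 groups of values in all, of which chance alone would flag about 0.9. One was flagged: Ntf3 in EtOH-UA, where the highest mouse, at 8.05 FPKM, lay 0.612 of the group's whole range above the next mouse at 5.4. This is the mouse with the highest summed FPKM.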

How the results depend on the processing

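None of the 6 members passed an adjusted p of 0.05 in any comparison under any alternative run. Of 627 log2 fold changes of members recomputed under alternatives, 586 kept their sign and 41 reversed it, the latter in 9 of 18 results. All of the following are log2 fold changes. In EtOH against Ctrl, Bdnf was 0.00613 under upper-quartile scaling and 0.00806 with summed FPKM as covariate, Vgf was 0.00101 under quantile normalization, and with choroid plexus markers as covariate Ngfr was -0.0604 and Vgf 0.064. In EtOH-UA against EtOH, Vgf was 0.106 with dentate granule markers as covariate. In EtOH-UA against Ctrl, Ntrk2 was 0.041 with sample weights and 0.024 with summed FPKM as covariate. With dentate granule markers as covariate, Ntf3 was -0.0298, Ntrk2 0.038, Ntrk3 -0.00625 and Vgf 0.084, and with choroid plexus markers Ntrk3 was -0.00566 and Vgf 0.022. With 1 of the 23 mice left out at a time, the reversed results ran, in EtOH against Ctrl, from -0.084 to 0.031 for Bdnf, from -0.122 to 0.027 for Ntf3 and from -0.069 to 0.000946 for Vgf. They ran from -0.085 to 0.044 for Vgf in EtOH-UA against EtOH and, in EtOH-UA against Ctrl, from -0.048 to 0.041 for Ntrk2, from -0.0198 to 0.0726 for Ntrk3 and from -0.113 to 0.016 for Vgf. The number of genes called over the whole table moved from 0 to 1 with sample weights in EtOH against Ctrl, and ran from 0 to 1 in all 3 comparisons with 1 mouse left out. The cause was not tested.

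With 1 mouse left out, 6 results reached an unadjusted p under 0.05 in limma at least once. In EtOH-UA against EtOH these were Bdnf (0.142 to 0.287, smallest unadjusted p = 0.0162 in limma), Ntf3 (0.143 to 0.325, 0.0397) and Ngfr (-0.455 to -0.218, 0.0307), in EtOH-UA against Ctrl Bdnf (0.13 to 0.241, 0.0379) and Ntf3 (0.0895 to 0.278, 0.042), and in EtOH against Ctrl Ntrk3 (0.114 to 0.184, 0.0482). Ngfr in EtOH-UA against Ctrl ran from -0.265 to -0.0275 and did not reach it. With sample weights, the unadjusted p in limma was 0.0249 for Ntrk3 in EtOH against Ctrl and 0.0288 for Bdnf in EtOH-UA against EtOH, with adjusted p of 0.564 and 0.88. With choroid plexus markers as covariate, Bdnf in EtOH-UA against EtOH was 0.24 (unadjusted p = 0.0465 and adjusted p = 0.926 in limma). The count of member pairs that passed went from 2 to 1 without the 2 most extreme mice and to 0 without the EtOH-UA mouse of highest summed FPKM. The coefficient of Bdnf and Vgf was -0.545 under upper-quartile scaling and passed there. Coefficients reversed for 6 pairs that did not pass. Under upper-quartile scaling they were 0.0512 for Bdnf and Ntrk3 and 0.0045 for Ntrk2 and Vgf. Without the 2 most extreme mice they were 0.128 for Bdnf and Ntrk3, -0.0424 for Bdnf and Ngfr, 0.0848 for Ntf3 and Ntrk3, -0.0237 for Ntf3 and Ngfr and 0.014 for Ntrk2 and Ngfr. Without the EtOH-UA mouse they were 0.161 for Bdnf and Ntrk3, -0.0036 for Bdnf and Ngfr, 0.199 for Ntf3 and Ntrk3 and 0.109 for Ntrk2 and Ngfr. Of the 16 marker relations that passed by r, 9 still passed without the 2 most extreme mice, 11 without the EtOH-UA mouse and 15 under upper-quartile scaling. Leaving this mouse out of the correlations, the other alternatives for the marker relations and the covariates were chosen after seeing the data. No paired analysis was possible because the columns carry no replicate numbers. Ngfr was not tested at a filter of 1 FPKM, which it did not reach.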
